A study of Homo sapiens with 12 samples.

Results

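The MYC and MAX network was followed through SCC15 and SCC25 cells treated with squamocin. Its members here are MYC, MYCL, MAX, MXD1, MXD3, MXD4, MXI1, MNT, MGA and MLX, found by matching gene names in the deposited expression tables. All 10 were found in both tables, among 29657 genes listed for SCC15 and 31055 listed for SCC25. All 10 also passed the minimum level for testing, a mean of 10 normalized counts over the 6 libraries of a cell line. A normalized count here is a gene's read count after division by a size factor that the authors set for each library within each cell line.

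RNA-seq was performed on total RNA of SCC15 and SCC25, established human head and neck squamous cell carcinoma (HNSCC) lines that the labels give as wild type. Each line was cultured for 24 h with squamocin, a plant polyketide that blocks mitochondrial Complex I and that the labels call ACGs, or with the solvent DMSO. Each of the 4 groups had 3 libraries, 12 in all. The labels state no dose and do not say whether libraries came from separate cultures, so p-values measure only the spread between these libraries.

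The network is built around MAX, a small leucine zipper protein that must pair with a partner to bind the E-box, the DNA word CACGTG. MYC and MYCL pair with MAX and activate genes of growth and metabolism, while MXD1, MXD3, MXD4, MXI1 and MNT pair with MAX on the same sites and recruit the SIN3 corepressor. MGA brings MAX into a Polycomb repressor complex, and MLX carries a parallel branch in which it pairs with MNT, some MXD proteins or the glucose-sensing factors MLXIP and MLXIPL. MYC is a frequent driver of squamous carcinomas, so the balance between activators and repressors that share MAX is the question these genes address.

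The 12 libraries held between 16665563 and 22748845 recovered reads. One library stood apart. SCC15 squamocin replicate 3 differed from replicates 1 and 2 of its group by chi-square values per degree of freedom of 64.06 and 56.84, against 1.672 to 9.953 for the other 10 replicate pairs. All 7 squamous markers were above the minimum level in SCC25, with summed counts of 23842 to 23988 in DMSO and 36638 to 37981 in squamocin libraries, with TP63 at 4466 to 7030 and KRT5 at 4362 to 5684 normalized counts. In SCC15 the sums were 3810.1 to 3957 and 5215 to 8768, KRT5 was at 2.49 to 13.1, TP63 at 6.22 to 22.7 and EPCAM at 2.28 to 14.9, while KRT14 was at 752 to 1912 and SFN at 2375 to 6292. The squamous markers KRT5 and TP63 were thus near 0 in SCC15, as was the epithelial marker EPCAM. The identity of the line was not checked here. PTPRC, the leukocyte marker and 1 of 4 immune markers that summed to at most 37.8, was at 0 to 3.95 in SCC15 and was not listed in SCC25. The 4 fibroblast markers summed to 590 to 643 (DMSO) and 384 to 415 (squamocin) in SCC15, and to 579 to 613 and 900 to 1060.2 in SCC25. Of 3 endothelial markers, 2 were listed in SCC15 and 3 in SCC25, and they summed to 158 to 178 and 66.1 to 77.1 in SCC15, and to 231 to 294 and 19.8 to 36.6 in SCC25. The libraries are of cultured cell lines, so these counts do not show that fibroblast, immune or endothelial cells were present. The source of these marker transcripts was not tested. In bulk RNA fewer cells of a kind and less RNA per cell cannot be told apart.

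Scaling moved some of the directions given below. After the authors' size factors the summed normalized counts per library were higher with squamocin than with DMSO, so scaling all libraries to equal totals instead moved the median log2 fold change of all genes tested from 0.012 to -0.48 in SCC15 and from -0.015 to -0.22 in SCC25. Changes are given first with the deposited size factors. Where the call or direction of a member or a named list gene depends on it, the value with equal totals is given as well. Ratios between members within a library do not depend on this choice.

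With the deposited size factors MXD1 changed most in both cell lines, and MYC next to it in SCC25. With equal totals MGA changed more than MXD1 in SCC15 (-1.67 against 1.39 on the log2 scale), while MXD1 kept the largest change in SCC25 (2.80). In SCC25, MYC transcripts fell 3.65-fold while MXD1 rose 8.05-fold and MAX rose 2.26-fold. In SCC15, MXD1 rose 3.73-fold and MAX 2.28-fold, but MYC did not fall. It was 1.69-fold higher with the deposited size factors, and with equal totals its change was not past the threshold.

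**Figure D1:**
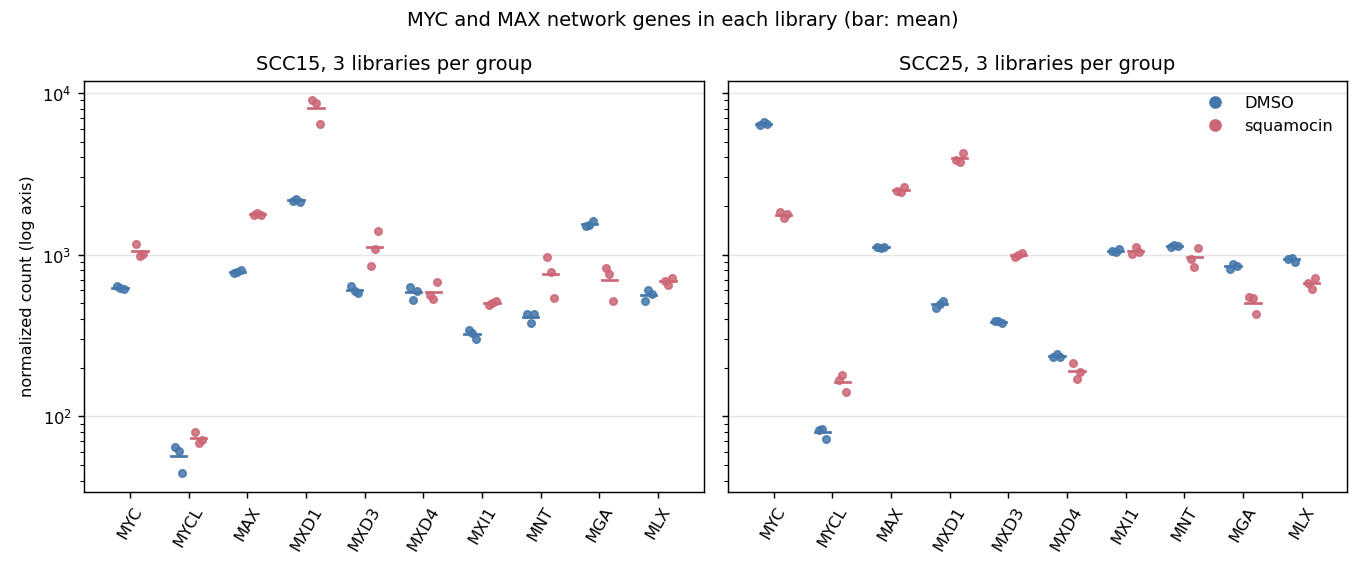
Normalized count (log axis) of each of the 10 members in SCC15 (left) and SCC25 (right). Each point is 1 library, blue for DMSO and red for squamocin, and each bar is the mean of 3. MXD1 and MAX lay higher with squamocin in both cell lines, also with equal library totals, whereas MYC lay lower with squamocin in SCC25, at 1674 to 1824 against 6309.5 to 6589.

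Promoter sequences are shown for 4 members. MNT, MLX and MXD4 carry the E-box at which the network's own dimers bind, and MXD1 is shown as a member without it. RefSeq start sites (GRCh38.p14) were matched for 9 of the 10 members, with 14 windows in all. The member without a match was MYC, so its promoter was not searched. A window runs from 250 bases before to 50 bases after a start. CACGTG, which reads the same on both strands, occurred in 3 of the 14 windows and in 7.26% of all 35116 RefSeq windows of that length. The stress-response motif TGATGNAA, searched on both strands, occurred in 0 of the 14 and in 3.62% of all. The first base of CACGTG lay 238 bases before the start of MXD4, 193 before that of MNT and 50 before that of MLX. MYCL, MAX, MXD1, MXD3, MXI1 and MGA had no CACGTG in any window. Of these, MAX, MXD1 and MXD3 rose in both lines and MGA fell in both. Whether the motif relates to the response was not tested. The MXD1 window lies inside the gene bounds given below, which begin at 69897688, and no window lay at that position. The 250 bases before each start follow, 5′ to 3′ on the gene's strand, with CACGTG in capitals: MXD4 at chr4:2262110-2262359 on the minus strand, MNT at chr17:2401061-2401310 on the minus strand, MLX at chr17:42566850-42567099 on the plus strand and MXD1 at chr2:69914859-69915108 on the plus strand.
MXD4: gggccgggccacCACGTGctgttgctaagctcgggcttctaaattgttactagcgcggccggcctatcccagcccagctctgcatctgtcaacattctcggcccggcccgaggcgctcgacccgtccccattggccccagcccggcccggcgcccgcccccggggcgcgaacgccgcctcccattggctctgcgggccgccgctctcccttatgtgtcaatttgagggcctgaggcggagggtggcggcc
MNT: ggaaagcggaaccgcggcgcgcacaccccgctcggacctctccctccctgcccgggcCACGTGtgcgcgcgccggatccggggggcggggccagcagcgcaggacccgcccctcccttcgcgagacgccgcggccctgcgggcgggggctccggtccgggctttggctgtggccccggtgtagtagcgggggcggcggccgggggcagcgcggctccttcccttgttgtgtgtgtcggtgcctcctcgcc
MLX: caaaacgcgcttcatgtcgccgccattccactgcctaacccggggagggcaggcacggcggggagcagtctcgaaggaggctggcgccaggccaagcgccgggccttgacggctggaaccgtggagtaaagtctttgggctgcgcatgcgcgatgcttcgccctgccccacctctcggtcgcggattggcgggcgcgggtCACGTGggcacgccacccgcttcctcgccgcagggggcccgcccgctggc
MXD1: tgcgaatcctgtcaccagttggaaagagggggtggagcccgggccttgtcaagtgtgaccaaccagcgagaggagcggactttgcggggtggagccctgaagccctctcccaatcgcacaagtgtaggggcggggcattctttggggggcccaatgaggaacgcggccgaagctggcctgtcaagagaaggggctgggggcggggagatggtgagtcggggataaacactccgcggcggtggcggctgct

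Activators came first. MYC (ENSG00000136997, chromosome 8, 127735434 to 127741434, GRCh38) is the activator that drives ribosome building and cell growth. In SCC25 its normalized counts were 1824, 1674 and 1789 with squamocin and 6309.5, 6589 and 6418 with DMSO. The 3 squamocin libraries lay far below every DMSO library. The log2 fold change was -1.87 (SE 0.045, limma adjusted p = 2.65e-12), and -2.08 with equal totals. In SCC15 the counts were 1169.6, 983 and 1003 with squamocin and 636, 618 and 612 with DMSO. The groups did not overlap, and squamocin replicate 1 was the highest. The log2 fold change was 0.75 (SE 0.096, limma adjusted p = 5.18e-04), but with equal totals it was 0.26 and not past the threshold (limma adjusted p = 0.119). The response therefore differed between the lines by -2.62 on the log2 scale (95% interval -2.85 to -2.40, limma adjusted p = 4.28e-09), and by -2.33 with equal totals.

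The lines also started from unequal levels of MYC. Because the tables were normalized separately, levels were set side by side as CPM, in which the recovered reads of each library are scaled to 1 common total, without a test. MYC stood at 352 ± 8.22 CPM (SD, n = 3) in SCC25 with DMSO and at 40.1 ± 0.754 in SCC15 with DMSO, 8.78-fold apart. With squamocin it stood at 83.4 ± 4.10 and 48.3 ± 8.27, 1.73-fold apart. The line with high MYC thus lost most of it, and the squamocin-treated SCC25 libraries still held more MYC by CPM than SCC15 libraries of either treatment. MXD1 had the opposite order, with SCC25 at 0.193 of the SCC15 level in DMSO and 0.502 of it with squamocin.

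MYCL (ENSG00000116990, chromosome 1, 39895426 to 39902256), the MYC paralog first known from lung cancer, was the lowest of the 10 members per kb of exon in each line under DMSO. SCC25 libraries held 167, 181 and 141 with squamocin and 82.2, 83.7 and 72.6 with DMSO. All squamocin libraries were above all DMSO libraries, opposite to MYC in the same cells, with a log2 fold change of 1.02 (SE 0.14, limma adjusted p = 2.11e-05). SCC15 libraries held 79.98, 68.4 and 70.9 with squamocin and 64.8, 60.9 and 44.5 with DMSO. These groups did not overlap, but the log2 fold change of 0.37 (SE 0.19) was not past the threshold (limma adjusted p = 0.128) and was -0.12 with equal totals. MYCN, the third paralog, was not listed in SCC15. In SCC25 it was below the minimum level, at 4.84, 5.40 and 4.43 with DMSO and 0 in each squamocin library.

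MAX (ENSG00000125952, chromosome 14, 65006174 to 65102695), the shared partner, rose by nearly the same amount in both lines. The SCC15 counts were 1749, 1810.1 and 1764 with squamocin and 765, 776 and 798 with DMSO. The SCC25 counts were 2485, 2427 and 2608 with squamocin and 1114, 1096 and 1121 with DMSO. Replicates agreed closely and the groups were well separated. The log2 fold changes were 1.19 (SE 0.075, limma adjusted p = 3.09e-05) and 1.17 (SE 0.047, limma adjusted p = 2.37e-10). The difference between lines was -0.012 (95% interval -0.19 to 0.17, limma adjusted p = 0.913). With equal totals MAX rose by 0.69 and 0.97, and the difference became 0.28 (limma adjusted p = 0.0473), so that the difference between lines depends on the scaling. FNTB, which overlaps MAX on the opposite strand, was at 77.7 to 129 in all 12 libraries.

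Repressive partners followed. MXD1 (ENSG00000059728, chromosome 2, 69897688 to 69942945) is a MYC antagonist that is commonly switched on as epithelial cells stop dividing and differentiate. SCC25 values were 3869, 3751 and 4275 with squamocin and 467, 492 and 519 with DMSO, a log2 fold change of 3.00 (SE 0.061, limma adjusted p = 6.53e-13). SCC15 values were 9080.02, 8663 and 6456 with squamocin and 2149.8, 2209.8 and 2126 with DMSO, a log2 fold change of 1.88 (SE 0.14, limma adjusted p = 4.91e-05). Squamocin replicate 3 of SCC15 was the lowest of its group and still far above DMSO. With equal totals MXD1 rose by 2.80 in SCC25 and 1.39 in SCC15. SCC15 started higher and rose by 1.12 less on the log2 scale (95% interval 0.79 to 1.46, limma adjusted p = 6.42e-05). SNRNP27, which overlaps MXD1 on the same strand, also rose (1.01 and 1.29 on the log2 scale), at counts of 321 to 870 in SCC15 and 297 to 846 in SCC25, and its part in the MXD1 values was not tested.

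MXD3 (ENSG00000213347, chromosome 5, 177301461 to 177312757), an MXD protein seen in proliferating cells, rose in both lines too. It was at 960, 993 and 1016 with squamocin and 390.1, 388 and 375 with DMSO in SCC25, a log2 fold change of 1.36 (SE 0.060, limma adjusted p = 5.55e-10). SCC15 libraries held 854, 1087 and 1400 with squamocin and 639, 591 and 581 with DMSO, a log2 fold change of 0.85 (SE 0.17, limma adjusted p = 0.00390). The SCC15 squamocin libraries were spread widely, with replicate 3 the highest, but stayed above DMSO. The difference between lines of 0.51 (limma adjusted p = 0.0374) lost its call in 11 of the 12 fits that left out 1 library and was 0.33 without SCC15 squamocin replicate 1. PRELID1, which overlaps MXD3 on the opposite strand, rose as well (log2 fold changes 1.39 and 0.55), as did RAB24 on the same strand (1.65 and 0.97). Whether the counting used strand is not given in the sources used here, and the part of these neighbors in the MXD3 values was not tested.

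MXD4, MXI1 and MNT did not share this rise across lines. MXD4 (ENSG00000123933, chromosome 4, 2247432 to 2262294) is a further MXD antagonist found in resting and differentiated cells. The SCC15 counts were 561, 531 and 678 with squamocin and 629, 527 and 594 with DMSO. The groups overlapped, with a log2 fold change of 0.013 (limma adjusted p = 0.936), but with equal totals it fell by 0.48 (limma adjusted p = 0.00433). SCC25 libraries held 212, 169.5 and 189 with squamocin and 233, 244 and 233 with DMSO, a log2 fold change of -0.32 (SE 0.10, limma adjusted p = 0.0146). That small fall lost its call without squamocin replicate 2 (limma adjusted p = 0.0512) or without DMSO replicate 2 (0.0556).

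MXI1 (ENSG00000119950, chromosome 10, 110207605 to 110287365), also an antagonist of MYC and a gene that hypoxia induces, changed in SCC15. It was at 489, 502 and 513 with squamocin and 342, 327 and 301 with DMSO, with no overlap and a log2 fold change of 0.63 (SE 0.093, limma adjusted p = 9.86e-04). With equal totals this was 0.14 (limma adjusted p = 0.284). The SCC25 counts were 1012, 1111 and 1030.3 with squamocin and 1050.1, 1035 and 1083 with DMSO. These libraries overlapped, with a log2 fold change of -0.0080 (95% interval -0.13 to 0.11, limma adjusted p = 0.901), and -0.22 with equal totals (limma adjusted p = 0.00282). The responses differed by -0.64 (limma adjusted p = 2.15e-04).

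MNT (ENSG00000070444, chromosome 17, 2384060 to 2401118) is the broadly expressed antagonist that can pair with MAX or MLX. SCC15 values were 966, 779.7 and 542 with squamocin and 427, 379.5 and 431 with DMSO, a log2 fold change of 0.85 (SE 0.20, limma adjusted p = 0.00794). Squamocin replicate 3 was nearest to DMSO, and with equal totals the change was 0.35 (limma adjusted p = 0.262). SCC25 values were 944, 836 and 1105 with squamocin and 1116, 1152 and 1128 with DMSO. All 3 squamocin libraries were lower, at -0.24 on the log2 scale (SE 0.083, limma adjusted p = 0.0172). The SCC25 call was lost without squamocin replicate 1 (limma adjusted p = 0.0513), squamocin replicate 2 (a change of -0.15, 0.0708) or DMSO replicate 2 (0.0591). The responses differed by -1.09 (limma adjusted p = 0.00171).

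MGA (ENSG00000174197, chromosome 15, 41621224 to 41773081), the giant dual-domain factor that takes MAX into the Polycomb complex PRC1.6, fell in both lines. SCC15 libraries held 825, 753 and 515 with squamocin and 1513, 1520.4 and 1604 with DMSO, a log2 fold change of -1.17 (SE 0.17, limma adjusted p = 9.18e-04). SCC25 libraries held 545, 537 and 426 with squamocin and 812, 879.7 and 848 with DMSO, a log2 fold change of -0.76 (SE 0.089, limma adjusted p = 5.50e-06). Every squamocin library was below every DMSO library in both lines, replicate 3 being the lowest in each. The difference between lines was 0.42 (95% interval -0.036 to 0.87, limma adjusted p = 0.112). It was past the threshold with equal totals (0.70, limma adjusted p = 0.0407) and without SCC15 squamocin replicate 1 (0.55, limma adjusted p = 0.0302), whereas without SCC15 squamocin replicate 3 it was 0.21 (limma adjusted p = 0.119).

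MLX (ENSG00000108788, chromosome 17, 42567068 to 42573239), the hub of the parallel branch, moved apart in the 2 lines. The SCC25 counts were 669.8, 615 and 715 with squamocin and 942, 958 and 903 with DMSO, a log2 fold change of -0.49 (SE 0.066, limma adjusted p = 1.98e-05). The SCC15 counts were 686, 652 and 718 with squamocin and 514, 602 and 567 with DMSO. Those groups did not overlap, and the log2 fold change was 0.29 (SE 0.096, limma adjusted p = 0.0321). The SCC15 call was lost without squamocin replicate 1 or any 1 of the 3 DMSO libraries (limma adjusted p = 0.0501 to 0.134), and with equal totals the value was -0.21 (limma adjusted p = 0.110). The difference between lines of -0.78 (limma adjusted p = 1.29e-04) kept its direction with equal totals, at -0.49. PSMC3IP, on the opposite strand of MLX, was at 191 to 311 in the 12 libraries.

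**Figure D2:**
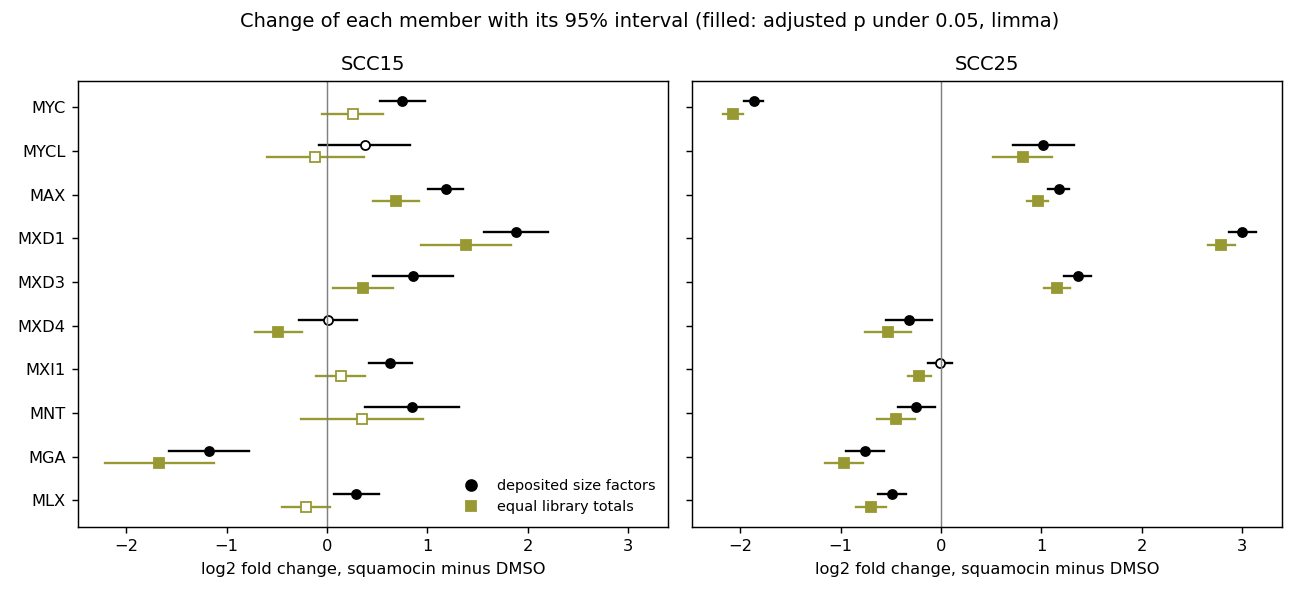
Log2 fold change (squamocin minus DMSO) of each member in SCC15 (left) and SCC25 (right), with 95% intervals from limma over 3 against 3 libraries. Black circles use the deposited size factors and olive squares equal library totals, and filled symbols have an adjusted p under 0.05. With equal totals MLX, MXD4 and MYCL in SCC15 lay below 0 (-0.21, -0.48 and -0.12), while MAX, MXD1, MXD3 and MGA kept direction and call in both lines.

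Counted together, SCC15 had 7 of the 10 members higher, 1 lower and 2 not past the threshold. Of all 15902 genes tested there, 30.9% were called higher and 30.0% lower. In SCC25, 4 members were higher, 5 lower and 1 not past the threshold, against 38.3% and 38.5% of all 16539 genes. The members' median log2 fold change was 0.69 in SCC15 and -0.13 in SCC25, beside 0.012 and -0.015 for all genes tested. With equal totals SCC15 had 3 members higher and 2 lower (14.8% and 50.5% of all genes), and SCC25 had 4 higher and 6 lower (30.4% and 47.4%). The higher share of calls then went from 50.8% to 22.7% in SCC15, from 49.9% to 39.1% in SCC25 and from 49.9% to 69.5% for the difference between lines.

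MAX, MXD1 and MXD3 were higher in both lines, as were 22.1% of the 14454 genes tested in both. MGA alone was lower in both, a call shared by 18.6% of all genes. MYC, MNT and MLX rose in SCC15 and fell in SCC25, as did 5.44% of all genes, and 10.1% had opposite calls in either direction. With equal totals no member had opposite calls (10.9% of all genes), 3 were higher in both (10.7%) and 2, MGA and MXD4, were lower in both (32.2%). Of all genes 2.29% were then higher in SCC15 and lower in SCC25. The response differed between lines for 7 members, against 52.2% of all genes, 26.0% more positive and 26.1% more negative in SCC25. It was more positive in SCC25 for MXD1, MXD3 and MYCL and more negative for MYC, MNT, MLX and MXI1. With equal totals 5 members were more positive in SCC25, MAX and MGA being added, and the same 4 were more negative. Of all genes 37.7% were then more positive and 16.6% more negative, 54.3% in either direction. The MYCL difference of 0.65 with the deposited size factors (limma adjusted p = 0.0358) was lost in 8 of the 12 fits without 1 library.

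Within-library make-up was then described per kb of exon, to allow for the unequal length of genes. The length used joins all annotated exons of a gene (6.109 kb for MYC), which can exceed the transcript made in these cells. Shares, ratios and orders between genes depend on this length. Of the summed signal of the 8 MAX partners (MYC, MYCL, MXD1, MXD3, MXD4, MXI1, MNT and MGA), the activators MYC and MYCL made up 66.2%, 66.7% and 66.0% in the 3 SCC25 DMSO libraries and 22.4%, 21.5% and 20.6% in the squamocin libraries. The mean share went from 66.3% ± 0.397 to 21.5% ± 0.905 (SD, n = 3 each, two-sided exact permutation test p = 0.1). In SCC15 it was 13.5%, 13.6% and 13.1% with DMSO and 9.73%, 8.49% and 10.1% with squamocin, with means of 13.4% ± 0.262 and 9.44% ± 0.851 (n = 3 each, two-sided exact permutation test p = 0.1). A p of 0.1 is the smallest that 3 against 3 libraries allow, so this comparison could not pass 0.05. The activator share was lower in all 3 squamocin libraries of each line, including SCC15, where MYC itself was not lower.

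Most of the added share was MXD1. Its part of the partner signal went from 4.81% ± 0.221 to 41.7% ± 1.28 in SCC25 and from 40.3% ± 1.20 to 63.6% ± 5.21 in SCC15. By these lengths MXD1 was already the largest partner in SCC15 with DMSO, and became the largest in SCC25 with squamocin. Normalized counts not divided by length were also higher for MXD1 than for MYC in SCC25 with squamocin (3751 to 4275 against 1674 to 1824). Whether the order holds with other transcript lengths was not tested. The ratio of MXD1 to MYC went from 0.0736 to 2.16 in SCC25 and from 3.34 to 7.38 in SCC15, with no overlap of libraries in either line. MGA's share was lower with squamocin in both lines, at 1.74% against 9.12% in SCC15 and 1.68% against 2.61% in SCC25. MXD3 went from 5.02% to 13.96% in SCC25, while in SCC15 it was 15.1% with DMSO and 8.44% to 16.7% with squamocin, overlapping DMSO.

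**Figure D3:**
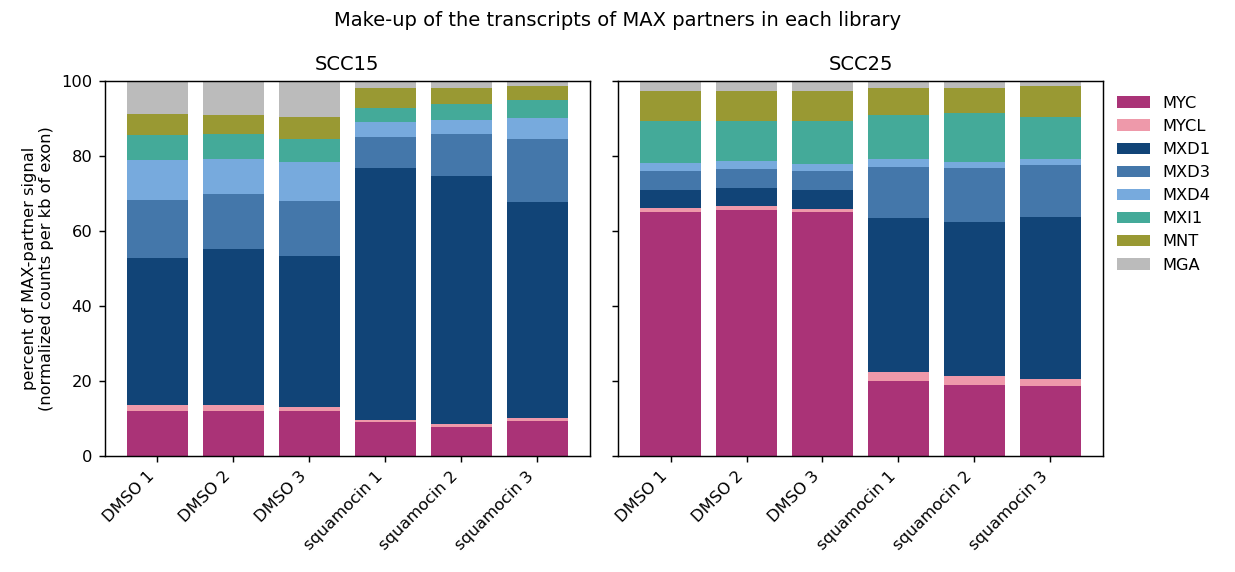
Percent of the summed MAX-partner signal (normalized counts per kb of exon) that each of 8 partners made up in each library, for SCC15 (left) and SCC25 (right). Each bar is 1 library and adds up to 100%. MYC filled 65.1% to 65.7% of the SCC25 DMSO bars and 18.8% to 20.2% of the squamocin bars, and MXD1 went from 4.64% to 5.06% up to 40.8% to 43.2%.

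MAX was also set against its partners. In SCC25 the ratio of MAX to the summed partners per kb was 0.110 ± 0.00287 with DMSO and 0.268 ± 0.000444 with squamocin. In SCC15 it was 0.148 ± 0.00577 and 0.144 ± 0.0147, with overlapping libraries (n = 3 each, two-sided exact permutation test p = 0.7). The ratio of MYC to MAX went from 5.94 to 0.720 in SCC25, without overlap, and from 0.818 to 0.608 in SCC15. In squamocin libraries this ratio was 0.702 to 0.752 in SCC25 and 0.556 to 0.685 in SCC15. For the parallel branch, MLX over MLXIP plus MLXIPL went from 0.753 to 1.43 in SCC15 and from 1.48 to 1.13 in SCC25, opposite directions without overlap of libraries (n = 3 each, two-sided exact permutation test p = 0.1 in each line).

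The order of levels per kb of exon among the members also differed between treatments. In SCC25 with DMSO, MYC was first at 1054 ± 23.1, followed by MLX at 219.6 ± 6.66 and by MXI1 (179 ± 4.09) and MAX (177 ± 1.99), which overlapped. MNT (130.1), MXD3 (81.0) and MXD1 (77.6) came next, the last pair overlapping, then MGA (42.2), MXD4 (34.4) and MYCL (16.0). With squamocin the SCC25 order began with MXD1 at 624 ± 43.3, MAX at 401 ± 14.8, MYC at 288 ± 12.8 and MXD3 at 209 ± 5.96, none of which overlapped the next. In SCC15 MXD1 was first in both groups, at 340.4 ± 6.82 (DMSO) and 1270.1 ± 222 (squamocin). With DMSO, SCC15 MAX was at 125 ± 2.67 and overlapped MLX (132 ± 10.4) and MXD3 (127 ± 6.49). After squamocin it held the position behind MXD1 (284 ± 5.07), where it overlapped MXD3 at 235 ± 57.7. SCC15 MYC was at 102 ± 2.00 in DMSO and at 172 ± 16.8 after squamocin, overlapping MLX at 161 ± 7.75.

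Genes that work with the network were counted in lists, each set beside the shares of all genes tested. With the deposited size factors these were 30.9% higher and 30.0% lower in SCC15, and 38.3% and 38.5% in SCC25. They became 14.8% and 50.5% in SCC15 and 30.4% and 47.4% in SCC25 with equal totals, and 38.0% and 37.6% in SCC15 without squamocin replicate 3. Of the glucose-sensing partners of MLX, MLXIP was lower in both lines (-0.60 and -0.29), while MLXIPL fell in SCC15 (-0.74) and rose in SCC25 (1.55), a difference of 2.29 (limma adjusted p = 8.10e-05). MLXIPL was low, at 16.0 to 19.9 normalized counts with squamocin and 23.7 to 35.8 with DMSO in SCC15. In SCC25 it was at 82.6 to 139 with squamocin and 36.3 to 38.7 with DMSO. TXNIP and ARRDC4, arrestin-family genes that MLXIP with MLX activates when glucose is high, were lower in both lines, TXNIP at -0.62 and -0.40 and ARRDC4 at -0.96 and -0.55. Each of these 4 genes had an adjusted p under 0.05 in each line by limma. With equal totals MLXIP, TXNIP and ARRDC4 were lower by more.

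Among 17 MYC cofactors, SCC15 had 7 higher and 1 lower (30.9% and 30.0% of all genes) and SCC25 had 5 higher and 7 lower (38.3% and 38.5%), with median log2 fold changes of 0.22 and -0.070. KAT2A, a histone acetyltransferase that MYC recruits, rose by 0.76 and 0.53, ZBTB17, the partner through which MYC represses, by 0.57 and 0.56, and BIN1, an inhibitor that binds MYC, by 0.82 and 0.17. With equal totals KAT2A in SCC15 was at 0.26 (limma adjusted p = 0.0523), ZBTB17 in SCC15 at 0.070 (0.589) and BIN1 in SCC25 at -0.040 (0.567), so these calls depend on the scaling. BPTF, a remodeler subunit that MYC needs on chromatin, was lower, at -1.01 and -0.55. Without SCC15 squamocin replicate 3, the SCC15 count was 10 higher and 4 lower (38.0% and 37.6% of all genes). With equal totals it was 2 higher and 7 lower (14.8% and 50.5%), with a list median of -0.27 beside -0.48 for all genes. The balance of this list thus depends on the scaling, as does that of all genes.

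For the 17 genes of the SIN3 and NCOR corepressors that MXD proteins recruit, SCC15 had 3 higher and 5 lower (30.9% and 30.0% of all genes) and SCC25 had 9 higher and 6 lower (38.3% and 38.5%), with medians of -0.0091 and 0.21. ING1, ING2 and SAP18, subunits of the SIN3 complex, rose in both lines (0.78 and 0.88, 0.76 and 0.80, 0.84 and 0.31). With equal totals ING2 (0.27, limma adjusted p = 0.213) and SAP18 (0.34, limma adjusted p = 0.0692) were not past the threshold in SCC15. The scaffold SIN3A was lower (-0.62 and -0.48), as was the histone-binding subunit RBBP4 (-0.36 and -0.75). Without SCC15 squamocin replicate 3 the SCC15 count was 9 higher and 7 lower (38.0% and 37.6% of all genes). With equal totals it was 1 higher and 10 lower (14.8% and 50.5%).

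MGA's partners in PRC1.6 were called in both directions. Of 9 genes, SCC15 had 3 higher and 3 lower (30.9% and 30.0% of all genes, list median 0.24), and SCC25 had 7 higher and 1 lower (38.3% and 38.5%, list median 0.53). YAF2 and RYBP, paralogs that dock on RING proteins, rose by 0.99 and 1.65 and by 0.55 and 1.39. RYBP in SCC15 was at 0.050 and not past the threshold with equal totals (limma adjusted p = 0.579). The ubiquitin ligase RING1 rose by 0.80 and 0.92, while L3MBTL2, a chromatin reader of the complex, was lower, at -0.46 and -0.42. With equal totals SCC15 had 2 higher and 4 lower (14.8% and 50.5% of all genes), and SCC25 had 6 higher and 2 lower (30.4% and 47.4%).

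Of 14 factors that promote MYC turnover, SCC15 had 5 higher and 3 lower (30.9% and 30.0% of all genes) and SCC25 had 6 of each (38.3% and 38.5%), with medians of 0.014 and 0.033. With equal totals SCC15 had 2 higher and 8 lower (14.8% and 50.5% of all genes) and SCC25 had 6 and 8 (30.4% and 47.4%). FBXW7, the substrate receptor that recognizes phosphorylated MYC, was at 485, 463 and 404 against 285, 309 and 281 in SCC15 and at 1150.3, 1125 and 1250.1 against 652, 608 and 562 in SCC25, with no overlap in either. Its log2 fold change was 0.62 (SE 0.11, limma adjusted p = 0.00196) and 0.95 (SE 0.068, limma adjusted p = 5.09e-08), and in SCC15 it was 0.13 and not past the threshold with equal totals. AXIN1, a scaffold of the kinase step before FBXW7, rose by 1.07 and 0.50. TRIM32, FBXL14 and SKP2, which are ubiquitin ligase genes, were lower, at -1.52 and -1.61, -0.99 and -1.08, and -0.99 and -0.42. Among 12 factors that stabilise MYC, SCC15 had 3 higher and 6 lower (30.9% and 30.0% of all genes) and SCC25 had 5 of each (38.3% and 38.5%), with medians of -0.66 and 0.14. With equal totals SCC15 had 1 higher and 9 lower (14.8% and 50.5% of all genes) and SCC25 had 4 and 6 (30.4% and 47.4%). OTUB1 and USP36, deubiquitinases, and SET, a phosphatase inhibitor, rose in both, and USP37, USP28 and BTRC were lower in both, USP37 at -1.35 and -1.08. USP36 (0.42, limma adjusted p = 0.183) and SET (0.078, limma adjusted p = 0.386) lost the SCC15 call with equal totals.

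Targets reported for MYC were the last group. Of 46 MYC-induced genes, 45 were tested in SCC15 with 23 higher and 8 lower (30.9% and 30.0% of all genes, list median 0.42), and 46 in SCC25 with 13 higher and 28 lower (38.3% and 38.5%, list median -0.35). The response was more negative in SCC25 for 27 and more positive for 4 of the 45 genes tested in both, against 26.1% and 26.0% of all genes. With equal totals SCC15 had 12 higher and 19 lower (14.8% and 50.5% of all genes), and SCC25 had 12 higher and 31 lower (30.4% and 47.4%). The list medians were then -0.080 and -0.55, beside -0.48 and -0.22 for all genes. The sign of the SCC15 median thus depends on the scaling. It lay above the median of all genes with either scaling (0.42 beside 0.012 with the deposited size factors). The difference between lines with equal totals was negative for 18 and positive for 10 (16.6% and 37.7% of all genes).

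Individual MYC-induced genes went both ways. ODC1, the entry enzyme of polyamine synthesis, was at 8230.3, 8382 and 11153 with squamocin against 3236, 3032 and 3094 in SCC15, and at 3752, 3909.99 and 3537 against 851, 846 and 836 in SCC25. It rose by 1.55 and 2.14 on the log2 scale, while MYC fell in SCC25. SRM, the next enzyme of that pathway, rose by 1.48 and 1.06, and PTMA, a nuclear protein of growing cells, by 1.20 and 1.69. E2F2, a cell cycle transcription factor, was lower, at -2.44 and -3.15, CDC25A, the phosphatase that starts S phase, at -1.48 and -1.26, and NOP56, a ribosome-building protein, at -0.79 and -1.24. All of these had an adjusted p under 0.05 by limma in each line with either scaling.

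MYC-repressed genes were called in both directions. Of 20 listed, 18 were tested in SCC15 with 11 higher and 4 lower (30.9% and 30.0% of all genes, list median 0.62), and 20 in SCC25 with 11 higher and 4 lower (38.3% and 38.5%, list median 0.43). With equal totals SCC15 had 8 higher and 7 lower (14.8% and 50.5%), and SCC25 had 10 and 9 (30.4% and 47.4%). DDIT3, the stress factor CHOP, rose by 4.30 and 2.63, CDKN1C, a cyclin-dependent kinase inhibitor, by 3.66 and 2.47, and GADD45B, a stress and growth arrest gene, by 2.73 and 3.32. GAS1, also a growth arrest gene, was lower, at -2.27 and -2.33.

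**Figure D4:**
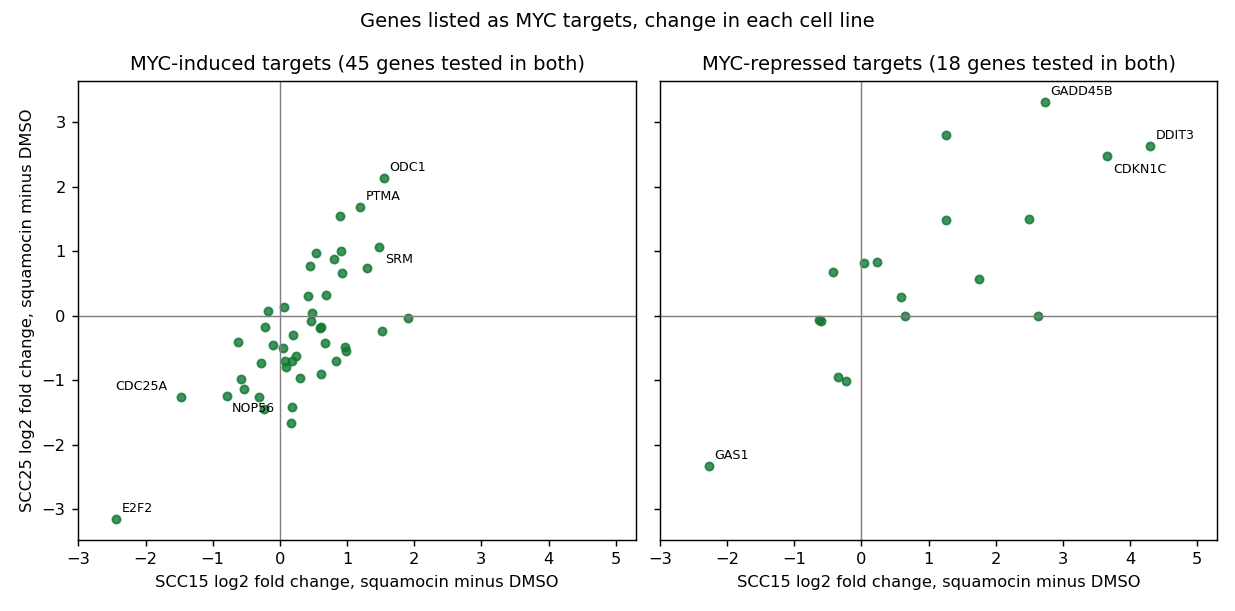
Log2 fold change (squamocin minus DMSO, deposited size factors) in SCC15 (horizontal) against SCC25 (vertical) for 45 MYC-induced genes (left) and 18 MYC-repressed genes (right) tested in both lines, 1 point per gene. Many MYC-induced genes lie right of 0 for SCC15 and below 0 for SCC25. The SCC15 position is shifted by the scaling (list median 0.42, or -0.080 with equal totals), as is that of all genes (median 0.012, or -0.48).

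The study also followed BMI1, PCNA and CCND1 as MYC targets, a choice made for these cells and so no independent evidence. In SCC25, PCNA was lower, at -0.97 on the log2 scale, and CCND1 at -0.17, while BMI1 was higher by 1.08. In SCC15, CCND1 was lower (-0.46), whereas BMI1 was at -0.12 (limma adjusted p = 0.415) and PCNA at -0.38 (limma adjusted p = 0.101). PCNA in SCC15 was at 1530.2 and 1766 in squamocin replicates 1 and 2 but at 2569 in replicate 3, above all DMSO libraries. Without replicate 3, or with equal totals, BMI1, PCNA and CCND1 were each called lower in SCC15.

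Likeness of pattern was described as Pearson's r over the 12 libraries, after centring each line on its own mean, for 9698 genes with a mean of at least 100 in both lines. The treatment groups are what these points share, so the values are a description without a test. The protein-coding genes most like MYC were EIF4H (r = 0.993), TGFBI (0.992), DDX54 (0.991), ALDH1A3 (0.991) and CTSB (0.990). Among members MLX came closest (0.930). The genes most like MXD1 were MTF2 (0.999), HMGCS1 (0.998), TNFAIP3 (0.998), DGKE (0.997) and ATF3 (0.997), and among members MAX (0.969) and MXD3 (0.943), with MGA at -0.833.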

How the data were processed

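RNA-seq libraries of SCC15 and SCC25 were compared between squamocin and DMSO, 3 libraries per group, with groups taken from the sample labels. The authors aligned reads to GRCh38 (hg38) with HISAT2 2.0.5 and counted them with featureCounts 1.5.0-p3. The deposited signal of a gene is its read count over the size factor of the library, set by the authors separately in each cell line (the SCC25 columns carry the name fpkm). Multiplied back, 100% of values were whole reads within 0.05. The authors' fold changes, p-values and group means were also deposited and not used. For 24 SCC15 and 21 SCC25 genes the name had turned into a date, none of them a member.

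Log2(normalized count + 1) was tested with limma 3.58.1 (trend, two-sided) in R 4.3.3, with Benjamini-Hochberg adjustment over all genes with a mean of at least 10 and a threshold of 0.05. The difference between lines was a contrast over 12 libraries. A fold change on this scale understates that of genes at low level. Shares used exon lengths from GENCODE 44, matched for 99.2% of identifiers, and an exact permutation test. Alternatives were pseudocounts of 0.1 and 10, no minimum, at least 10 in every library, equal totals, TMM, edgeR 4.0.16 and DESeq2 1.42.0 on recovered reads, a replicate block, each library left out and, for shares, no division by length or MGA left out. List counts under equal totals or without SCC15 squamocin replicate 3, the ratio of MAX to its partners and that of MLX to its own were added after the data had been seen. The scripts were tested on simulated data.

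Members and gene lists, written from general knowledge, were chosen with earlier results of these data known. All members are named, as is every gene of a list of at most 4 genes (1 of these genes is not reported here), and from longer lists up to 3 genes with the greatest rise and up to 3 with the greatest fall among those called the same way in both lines. Neighbors and marker genes are named beside the results they touch. For likeness, the 5 protein-coding genes with the highest r to MYC and MXD1 are named. Members held 51 to 7833 reads per library, which sets the counting error of each value.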

Additional observations from a re-analysis of the deposited data

Results flagged for a closer look

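The response to squamocin differed between SCC15 and SCC25 for 7 of the 10 members, by a limma contrast over the 12 libraries (SCC25 response minus SCC15 response, log2 scale). Of all 14454 genes tested in both lines, 52.2% differed. The difference was -2.62 for MYC, -1.09 for MNT, -0.78 for MLX and -0.64 for MXI1, and 1.12 for MXD1, 0.65 for MYCL and 0.51 for MXD3. MYC, MXD1, MNT, MLX and MXI1 kept this call in each of the 12 fits without 1 library and with equal totals. The MYCL call was lost in 8 of those 12 fits and the MXD3 call in 11. Groups of 3 libraries are too small for a test of single outlying libraries. The treated SCC15 libraries differ in one more respect, since replicate 3 stood apart from the other 2 over all genes.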

How the results depend on the processing

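Of the member values recomputed under alternatives, 435 kept their direction and side of the threshold, 36 lost the call, 3 gained one and 16 changed sign. In 3 of these 16 a call stood in one of the fits compared, all with equal library totals: MXD4 in SCC15 at -0.48, MLX in SCC15 at -0.21 and the MAX difference between lines at 0.28. The other 13 changed sign with no call in either fit. They were MYCL in SCC15 with equal totals (-0.12), MXD4 in SCC15 with TMM (-0.030), edgeR (-0.056) and DESeq2 (-0.0054), the MAX difference with TMM (0.025) and values without 1 library, which ran from -0.091 to 0.084 for MXD4 in SCC15, from -0.048 to 0.019 for MXI1 in SCC25 and from -0.041 to 0.011 for the MAX difference. Equal totals also reduced the members called in SCC15 from 8 to 5 and took the call from MYC (0.26), MXI1 (0.14) and MNT (0.35) there. For MLX in SCC15, TMM (0.25) and edgeR (0.22) gave values no longer past the threshold. Over all genes edgeR called 9880 in SCC15 and 12804 in SCC25, and DESeq2 9964 and 12196, against 9694 and 12702 with limma. Leaving out 1 library gave 7542 to 12108 calls in SCC15 (12108 without squamocin replicate 3), 11848 to 13038 in SCC25 and 6812 to 9524 for the difference.

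Replicate numbers did not pair the libraries, as deviations of same-numbered libraries correlated at -0.051 to 0.0078. With the replicate number as a block, 9116 genes were called in SCC15, 12611 in SCC25 and 7089 for the difference, and among members MLX in SCC15 (limma adjusted p = 0.0789) and the MXD3 difference (0.0560) were no longer past the threshold. Transcripts alone were measured, so protein levels of the network were not analysed here.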
